A study of Mus musculus with 4 samples.

Results

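The genes described here are 8 markers of oligodendrocyte precursor cells (OPCs): Pdgfra, Cspg4, Gpr17, Vcan, Sox6, Lhfpl3, Tnr and C1ql1. They were chosen by name as the precursor end of the oligodendrocyte lineage, and every probe whose RefSeq accession belongs to one of them was taken. This gave 13 of the 56605 probes on the array. A probe was tested if, in 1 group or in both, it was flagged as well above background in each sample. This held for 12 of the 13, among 37516 such probes, and each of the 8 genes kept at least 1 probe, among 16524 genes. RNA from mouse cerebellum at postnatal day 28 was hybridised to 4 one-colour arrays, 2 per group. Both groups were C57BL/6 mice kept pathogen-free. The control mice were Derlin-2flox/flox, so they carried the floxed Derl2 alleles as well. The knockout (KO) mice came from crossing mice that express Cre recombinase from the nestin promoter with Derl2flox/flox mice. Nestin-driven Cre acts in neural precursors, from which neurons, astrocytes and oligodendrocytes descend, while microglia and blood vessels have another origin. A group with Cre and unfloxed Derl2 was not analysed here, so Cre itself and the loss of Derl2 cannot be told apart. The labels do not say whether the samples of a group came from separate animals, and every p-value measures only the spread between these samples.

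OPCs are the dividing glia that spread through white and grey matter and give rise to the oligodendrocytes that wrap axons in myelin. They are held in their precursor state by growth factors such as PDGF-A, receive synaptic input from neurons, and pass through a brief committed stage before they make myelin. In the cerebellum they persist into adult life in the white matter and among the dendrites of Purkinje cells. Derlin-2, the product of Derl2, sits in the endoplasmic reticulum membrane and helps to remove misfolded proteins. Several of the 8 genes are also active elsewhere: Pdgfra and Vcan in meningeal fibroblasts, Cspg4 in pericytes, and C1ql1 in neurons of the inferior olive, whose axons end in the cerebellum.

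Levels are log2 processed signals less the array's 75th percentile, so a level of 0 is that percentile and a difference of 1 is a doubling. Each probe has its own scale, and levels of different probes are not compared. For each gene the brightest kept probe was used, and for the 8 markers and Derl2 the others are given beside it. On its brightest probe, Derl2 had levels of 2.13 and 2.20 in control and 0.81 and 0.70 in KO, which left 37.6% of the control signal (log2 difference −1.41, SE 0.11; limma adjusted p = 0.273). Its other kept probe left 30.2% (difference −1.73, SE 0.10). The share of spots well above background ran from 66.4% to 69.4% over the arrays. All lay on 1 slide, with no more than 1 array per position, so no slide effect could be fitted. Control replicate 1 had 1350 spots on or near patches of raised local background, the other arrays 0 to 32. Control replicate 2 stood apart in choroid plexus markers, with a mean level of 2.40 over 9 genes against −2.44 to −1.73 on the remaining arrays.

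All 8 marker genes were detected in every sample, and all 8 had a lower mean in KO, by −0.04 (Pdgfra) to −0.64 (C1ql1) on the log2 scale. The median difference over the 8 was −0.17, against −0.06 over all 16524 genes, of which 63.9% had a lower mean in KO. None of the 8 passed the test: with limma and Benjamini-Hochberg adjustment, 0 of 37516 probes (0%) passed an adjusted p of 0.05, and the smallest adjusted p among the markers was 0.384, for Lhfpl3. At an unadjusted p under 0.05 there were 0 of the 8 in either direction, against 5.65% of all genes lower and 3.16% higher in KO. Both KO samples lay below both control samples for 4 of the 8 (Cspg4, Sox6, Lhfpl3 and C1ql1) and above them for 0, against 32.1% and 13.8% of all genes. A permutation of 2 against 2 samples cannot give a two-sided p under 33.3%. The RNA is from whole tissue, so fewer OPCs and less RNA per OPC cannot be told apart. Scaling to spike-in probes in place of the 75th percentile gave a median of −0.08 over the 8, with 2 of them separate and lower against 17.1% of all genes, turned Pdgfra and Vcan to slightly above 0, and changed the shares of all genes at an unadjusted p under 0.05 to 2.87% lower and 5.17% higher, with 45.4% of genes lower.

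**Figure D1:**
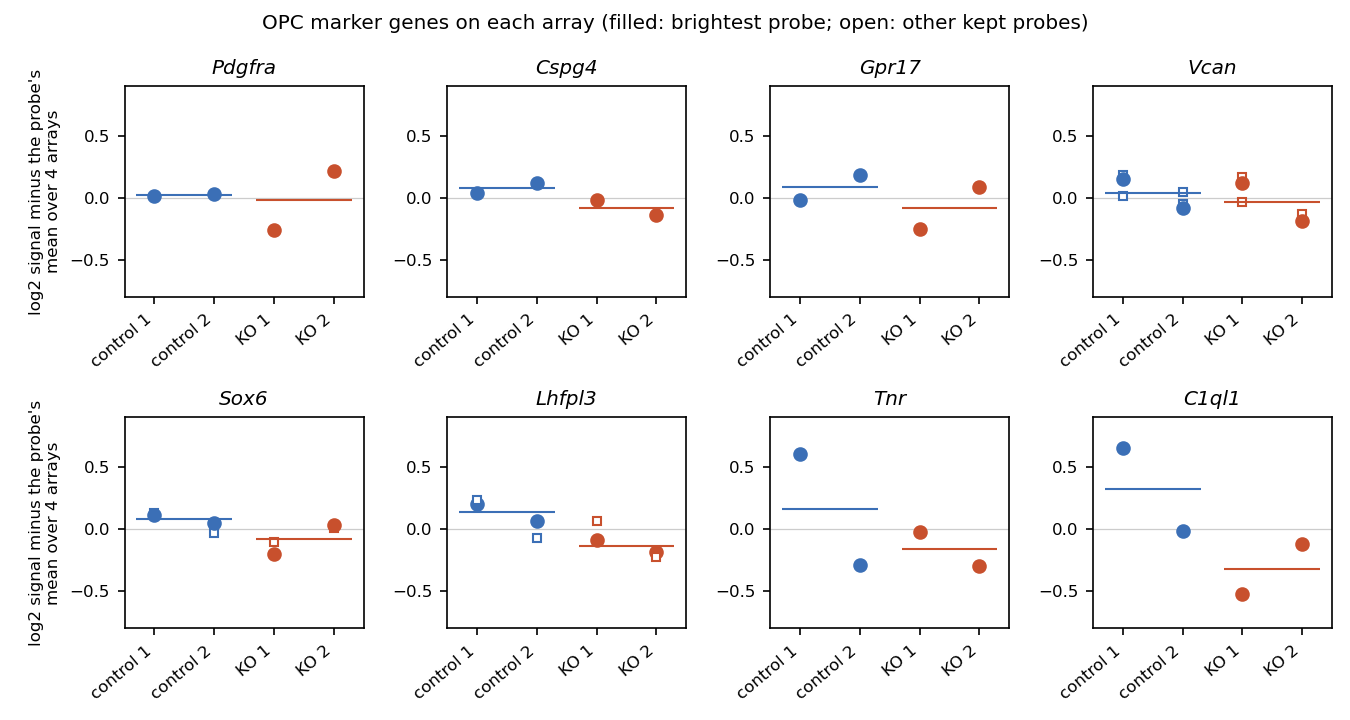
Log2 signal of the 8 marker genes on each of the 4 arrays, each probe centred on its own mean over the arrays (y axis, log2 units; blue control, orange KO; filled circles the brightest probe with group means as lines, open squares other kept probes). Lhfpl3 and Cspg4 have both KO samples below both controls with close replicates, while Tnr and C1ql1 are spread most, over 0.90 and 1.18.

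Lhfpl3 and Cspg4 were the members whose difference between groups was larger than the gap between the replicates of either group, 2 of the 8, against 22.9% of all genes that were lower by that rule. Lhfpl3 encodes a tetraspan membrane protein of the LHFPL family and is used as an OPC marker in single-cell studies. On its brighter probe the level was 0.35 and 0.21 in control and 0.06 and −0.04 in KO. Both KO samples were thus below both controls. The control mean of 0.28 ± 0.0965 (SD, n = 2) compared with 0.01 ± 0.0695 (SD, n = 2) for KO, a KO signal of 82.8% of control. The log2 difference was −0.27 (SE 0.11, 95% interval −0.57 to 0.03; limma adjusted p = 0.384). The second probe, made to another transcript, read 0.30 and 0.00 in control and 0.13 and −0.16 in KO, so there the groups overlapped (difference −0.16, SE 0.17). Under the 16 alternatives, 1 of which averaged both probes, the difference stayed below 0, from −0.34 to −0.19.

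Cspg4 encodes NG2, the transmembrane chondroitin sulphate proteoglycan after which OPCs are also called NG2 glia. Its level was −0.49 and −0.41 in control and −0.55 and −0.67 in KO. The separation was narrow, since the lower control and the higher KO sample lay within the spread of a replicate pair. Means were −0.45 ± 0.0536 (SD, n = 2) and −0.61 ± 0.0803 (SD, n = 2). The KO signal was 89.7% of control, a difference of −0.16 (SE 0.11, 95% interval −0.45 to 0.13; limma adjusted p = 0.541).

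The 250 bases upstream of the annotated starts of these 2 genes are shown because theirs were the differences that exceeded both replicate gaps. Of all genes, 22.9% were lower by that rule, and the second Lhfpl3 probe did not meet it (difference −0.16, gaps 0.30 and 0.29). The 2 stretches are from RefSeq (GRCm38.p6), both on the plus strand, at chr5:22745804-22746053 for Lhfpl3 and chr9:56864854-56865103 for Cspg4. Capitals mark matches, on either strand, to an E-box (CAGCTG), SOX core letters (ACAAT or ACAAAG) or a GC box (GGGCGG).

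Lhfpl3: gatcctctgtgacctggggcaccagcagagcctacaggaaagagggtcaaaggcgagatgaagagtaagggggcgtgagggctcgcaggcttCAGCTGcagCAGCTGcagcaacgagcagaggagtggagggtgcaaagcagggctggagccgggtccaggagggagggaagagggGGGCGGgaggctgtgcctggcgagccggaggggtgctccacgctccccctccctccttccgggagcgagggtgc

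Cspg4: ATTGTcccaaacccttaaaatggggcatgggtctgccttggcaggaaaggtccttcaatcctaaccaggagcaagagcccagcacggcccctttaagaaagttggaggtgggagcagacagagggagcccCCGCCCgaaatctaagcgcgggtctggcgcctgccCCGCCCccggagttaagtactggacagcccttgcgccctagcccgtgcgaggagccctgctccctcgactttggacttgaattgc

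The Lhfpl3 stretch holds the E-box letters at 158 and 149 bases before the start and a GC box at 74, and 67.2% of its bases are G or C. The Cspg4 stretch, at 60.4% G or C, holds ACAAT as its reverse complement at 250 bases before the start, and GC boxes at 120 and 85. Over the same 250 upstream bases of 32851 promoter windows, CAGCTG was found in 13%, ACAAT in 27.7%, ACAAAG in 16.5% and GGGCGG in 32.7%. The CCAAT box (CCAAT, 33.8% of windows), the TATA box (TATAAA, 12.4%) and the unfolded protein response element (TGACGTG, 1.65%) were also searched, and none of them occurs in these 2 stretches. Of the other members, Pdgfra, Tnr, Vcan and Sox6 have windows in the table, Sox6 with 6 of the 11 in all. ACAAAG was found in 6 of the 11 windows, in Tnr and in 5 of Sox6. TGACGTG was found in 1 window, of Sox6, at 139 bases before that start. C1ql1 and Gpr17 have no entry in the table. A match of letters is a description of the sequence and not a binding site.

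Pdgfra encodes the receptor for PDGF-A, which drives OPC division and survival. Its controls were nearly alike, at 0.39 and 0.40, and the KO samples lay on either side of them, at 0.11 and 0.59. The control mean of 0.39 ± 0.00947 (SD, n = 2) compared with 0.35 ± 0.345 (SD, n = 2) for KO. The difference was −0.04 (SE 0.19), and its 95% interval, −0.56 to 0.47, allows a change of either sign (limma adjusted p = 0.931). The sign rests on single samples: without KO replicate 1 the difference was 0.20. The other PDGF genes were all detected. Of the 6 ligands and receptors, 0 had an unadjusted p under 0.05, against 5.65% of all genes lower and 3.16% higher in KO. Against 32.1% of all genes, groups were separate and lower in KO for 2 of the 6. These were the ligands Pdgfc, with a difference of −0.26 (SE 0.15), and Pdgfa, with −0.15 (SE 0.10). Pdgfd, with overlapping groups, differed by 0.12 (SE 0.17).

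Gpr17 encodes a G protein-coupled receptor that marks OPCs committed to differentiate and falls away in mature oligodendrocytes. Its level was 3.5 and 3.7 in control and 3.26 and 3.6 in KO, so KO replicate 2 lay within the control range and KO replicate 1 below it. The means were 3.6 ± 0.144 (SD, n = 2) and 3.43 ± 0.244 (SD, n = 2), with a KO signal of 88.9% of control. The difference of −0.17 (SE 0.17, 95% interval −0.62 to 0.28) had a limma adjusted p of 0.663, and without KO replicate 1 it was 0.0037. Among 7 detected purinergic and leukotriene receptors, Gpr17 included, 2 had an unadjusted p under 0.05, both lower in KO, against 5.65% of all genes. They were P2ry12, a microglial ADP receptor, at −0.31 (SE 0.11), and Cysltr1, a leukotriene receptor, at −0.99 (SE 0.36). The Cysltr1 controls were far apart, at −4.92 and −3.92, and its KO samples read −5.50 and −5.31. P2ry13 differed by −0.25 (SE 0.12).

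Vcan encodes versican, a large hyaluronan-binding proteoglycan that OPCs release into the matrix. It was read by 3 probes, each detected on the 4 arrays. The brightest read −0.18 and −0.41 in control and −0.21 and −0.52 in KO, with overlapping groups and a difference of −0.07 (SE 0.16; limma adjusted p = 0.868). A probe for a different transcript, A_55_P1960208, read −0.99 and −1.13 in control and −1.21 and −1.36 in KO. There both KO samples were below both controls, and the difference was −0.23 (SE 0.12; limma adjusted p = 0.453). The dimmest probe, A_52_P168953, read −3.12 and −3.19 in control and −2.97 and −3.27 in KO, a difference of 0.04 (SE 0.14). These last 2 carry the same accession, and yet differed in sign and in separation. On the brightest probe the sign turned when control replicate 1 (0.05) or KO replicate 2 (0.09) was left out.

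Tnr encodes tenascin-R, a matrix glycoprotein made by OPCs, oligodendrocytes and some interneurons that binds lecticans such as versican. It read −0.64 and −1.53 in control and −1.27 and −1.54 in KO. Control replicate 1 alone was high, and the other 3 samples lay close together. The Tnr spot of that array lay on a patch of raised local background, where the local background was 34.0 in intensity units against 24.0 to 27.0 on the other arrays, and its processed signal was 512 against 249 to 315. The part of that patch in the result was not tested beyond leaving the array out. The means were −1.08 ± 0.631 (SD, n = 2) and −1.4 ± 0.190 (SD, n = 2). The difference of −0.32 (SE 0.33, 95% interval −1.21 to 0.57; limma adjusted p = 0.677) became 0.13 without control replicate 1 and −0.77 without control replicate 2. The spots of the remaining 12 marker probes lay on no such patch.

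**Figure D2:**
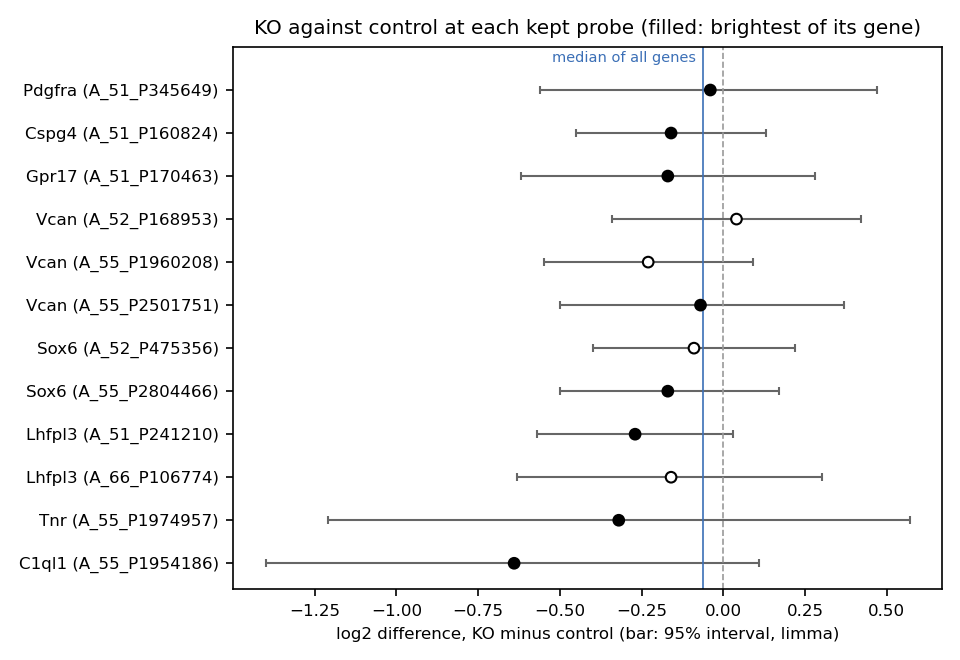
Log2 difference KO minus control with its 95% interval from limma (x axis) at each of the 12 kept probes of the 8 marker genes; filled points are the brightest probe of a gene, the blue line is the median over all genes and the dashed line is 0. The interval of each probe includes 0, and 11 of the 12 points lie below it.

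The matrix genes around Vcan, Tnr and Cspg4 were read as a list of lecticans, tenascins, link proteins and the enzymes that build or cut them. Of 22, 21 had a kept probe, and 3 of these are markers described above. At an unadjusted p under 0.05, 4 were lower and 0 higher in KO, against 5.65% and 3.16% of all genes. Groups were separate for 12 lower and 0 higher, against 32.1% and 13.8%. The median was −0.19. Hapln4, a link protein of perineuronal nets, had levels of −0.02 and −0.15 in control and −0.71 and −0.63 in KO, a KO signal of 66.6% of control (difference −0.59, SE 0.11; limma adjusted p = 0.273). Hapln1, a second link protein, differed by −0.54 (SE 0.15). Chst11, a chondroitin sulphotransferase, read 0.39 and 0.34 in control and 0.03 and 0.02 in KO, a difference of −0.34 (SE 0.10). Both link proteins and Chst11 had separate groups. Has3, a hyaluronan synthase, had no kept probe.

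Sox6 encodes a SoxD transcription factor that keeps OPCs from maturing early. Its brightest probe read 0.68 and 0.62 in control and 0.37 and 0.60 in KO. Both KO samples were below both controls, but KO replicate 2 by little. The means were 0.65 ± 0.0406 (SD, n = 2) and 0.48 ± 0.162 (SD, n = 2), which is 89.0% of control, with a difference of −0.17 (SE 0.13; limma adjusted p = 0.573). A second probe read −4.30 and −4.46 in control and −4.53 and −4.42 in KO, with overlapping groups (difference −0.09, SE 0.12). The third was not well above background on any array and was not tested. Among the 6 SoxD and SoxE factors, 1 was lower at an unadjusted p under 0.05, against 5.65% of all genes. This was Sox13, with −1.14 and −1.22 in control and −1.54 and −1.53 in KO (difference −0.36, SE 0.10; limma adjusted p = 0.3). Sox8, at −0.34 (SE 0.17), was lower with separate groups, as was Sox10, the factor that all stages of the lineage share, at −0.27 (SE 0.17). Sox5, a close relative of Sox6, was higher with separate groups, at 0.20 (SE 0.10).

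C1ql1 encodes a secreted C1q-like protein that binds the receptor Adgrb3 and is needed by climbing fibre synapses on Purkinje cells. It had the widest range of the 8 genes. Its levels were −2.83 and −3.50 in control and −4.01 and −3.61 in KO. The groups were separate, but the controls lay 0.67 apart, more than the group difference of −0.64 (SE 0.28, 95% interval −1.4 to 0.11; limma adjusted p = 0.398). The means were −3.16 ± 0.475 (SD, n = 2) and −3.81 ± 0.281 (SD, n = 2), and the KO signal was 64.0% of control. The probe is dim, with processed signals of 112 and 69.8 in control and 47.1 and 59.1 in KO. The size of the difference depended on how it was read. It was −0.32 under normexp background correction, a setting that also added an offset of 50 and quantile normalization. It was −0.31 without control replicate 1, but −0.98 without control replicate 2. Of the C1q-like and cerebellin synapse genes, 10 of 13 had a kept probe. C1ql2, C1ql4 and Cbln4 did not. At an unadjusted p under 0.05, 1 was lower and 0 were higher, against 5.65% and 3.16% of all genes. The 1 that was lower was C1ql3, with 0.61 and 0.60 in control and 0.18 and 0.30 in KO (difference −0.37, SE 0.11).

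The genes most like C1ql1 were taken as those with the smallest root mean square difference between profiles centred over the 4 arrays, among 3158 genes whose range was at least 0.5 times its own. They were Slc17a6, a vesicular glutamate transporter, at 0.0369, Gstt2, a glutathione transferase, at 0.0496, and Gm13304 at 0.0566. Slc17a6 read 0.20 and −0.43 in control and −0.88 and −0.55 in KO. With 4 arrays, likeness of this kind describes these samples only.

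The LHFPL family offers a comparison for Lhfpl3. All 6 detected members were tested, and 0 had an unadjusted p under 0.05, against 5.65% of all genes lower and 3.16% higher. Groups were separate and lower in KO for 2, Lhfpl3 and Lhfp (difference −0.04, SE 0.10), against 32.1% of all genes. Lhfpl5 differed by −0.36 (SE 0.21) and Lhfpl2 by 0.11 (SE 0.12), with overlapping groups in both.

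The position of the markers in the lineage was read from 3 further lists. All 26 genes of a list of other OPC-enriched genes had a kept probe. Of these, 21 had a lower mean in KO, against 63.9% of all genes, and the median was −0.22. At an unadjusted p under 0.05, 3 were lower and 0 higher, against 5.65% and 3.16%. Groups were separate for 15 lower and 2 higher, against 32.1% and 13.8%. The smallest p-values belonged to Xylt1, which starts chondroitin and heparan sulphate chains (difference −0.52, SE 0.13), Serpine2, a protease inhibitor (−0.33, SE 0.10), and Matn4, a matrilin of the matrix (−0.29, SE 0.10). Serpine2 read 4.83 and 4.8 in control and 4.45 and 4.51 in KO. Olig2, a factor that specifies the lineage, differed by −0.30 (SE 0.17), and Ptprz1, a receptor phosphatase of OPCs and astrocytes, by 0.03 (SE 0.11).

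Of 16 genes for the step between precursor and myelinating cell, 14 had a kept probe. The median was −0.08, with 2 lower and 0 higher at an unadjusted p under 0.05, against 5.65% and 3.16% of all genes. Groups were separate for 5 lower and 2 higher, against 32.1% and 13.8%. Enpp6, a choline phosphodiesterase that marks newly forming oligodendrocytes, had levels of −0.47 and −0.54 in control and −1.17 and −1.01 in KO. Its KO signal was 66.8% of control (difference −0.58, SE 0.11; limma adjusted p = 0.273). Cd9, a tetraspanin, differed by −0.33 (SE 0.10) and Zfp488, a transcriptional repressor made in the lineage, by 0.24 (SE 0.11), both with separate groups. Bmp4, another gene of this stage, read 1.09 and 1.07 in control and 0.88 and 1.17 in KO, with overlapping groups.

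All 20 genes of the myelinating list had a kept probe, with a median of −0.39. At an unadjusted p under 0.05, 9 were lower and 1 higher, against 5.65% and 3.16% of all genes. Groups were separate for 16 lower and 1 higher, against 32.1% and 13.8%. Opalin, a membrane protein of central myelin, read 0.18 and −0.24 in control and −0.79 and −0.77 in KO, which is 59.5% of control (difference −0.75, SE 0.17; limma adjusted p = 0.273). Pllp, the myelin proteolipid plasmolipin, differed by −0.62 (SE 0.14) and Gjb1, a gap junction protein, by −0.49 (SE 0.13). Ermn, a cytoskeletal protein of mature oligodendrocytes, was the 1 that was higher, at 0.37 (SE 0.10). The KO samples differed within this list, where KO replicate 1 was below KO replicate 2 for 18 of 20 genes. Among the 8 precursor markers this held for 4, and among all genes for 8178 of 16524. It held for 16 of 26 other OPC-enriched genes and for 10 of 14 differentiating oligodendrocyte genes. In lists of other cell types it ran from 0 of 9 interneuron markers to 9 of 10 microglia markers and 11 of 12 meningeal fibroblast markers. Whether the shift of the precursor markers differs from that of the myelin genes was not tested.

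**Figure D3:**
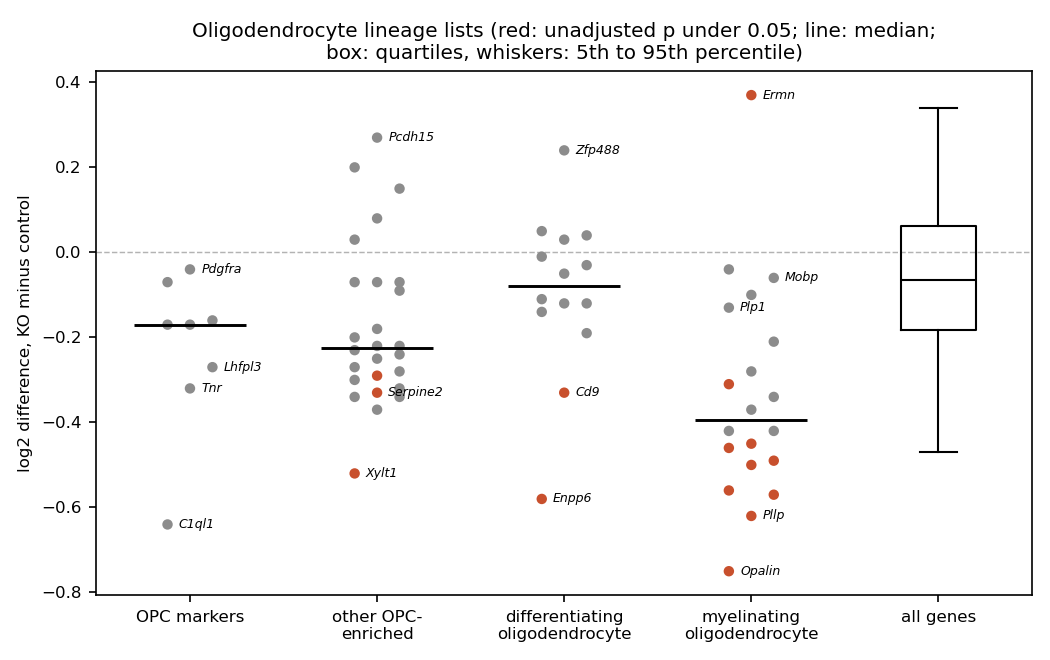
Log2 difference KO minus control (y axis) of each gene in 4 lists of the oligodendrocyte lineage, by brightest probe, with the list median as a line and all 16524 genes as a box (quartiles, whiskers to the 5th and 95th percentile); red points have an unadjusted p under 0.05. The medians are −0.17 for the OPC markers, −0.22 for other OPC-enriched genes, −0.08 for differentiating and −0.39 for myelinating oligodendrocyte genes.

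OPCs divide, so cell cycle genes were read beside the markers. Of 11, 10 had a kept probe, with a median of −0.14. At an unadjusted p under 0.05, 0 were lower and 1 higher, against 5.65% and 3.16% of all genes. The 1 that was higher was Rrm2, a subunit of ribonucleotide reductase, with −1.33 and −1.46 in control and −1.14 and −0.89 in KO (difference 0.38, SE 0.14). The helicase subunits Mcm5 and Mcm2 differed by −0.25 (SE 0.12) and −0.21 (SE 0.12). Cdk1 had no kept probe.

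Markers of the other cells that use these genes were read as a check on the label. All 10 pericyte markers, which bear on Cspg4, had a kept probe, with mean levels of 0.68 to 0.77 in control and 0.62 in both KO samples. The median difference of this list was −0.12. At an unadjusted p under 0.05, 0 were lower and 0 higher, against 5.65% and 3.16% of all genes. Vtn, Abcc9 and Anpep had the smallest p-values, with differences of −0.28 (SE 0.14), −0.21 (SE 0.12) and −0.19 (SE 0.14). All 12 meningeal fibroblast markers, which bear on Pdgfra and Vcan, were detected, at mean levels of 1.4 to 1.47 in control and 1.01 to 1.35 in KO. Their median was −0.24, with 3 lower at an unadjusted p under 0.05, against 5.65% of all genes. The 3 were Islr (−0.56, SE 0.15), Slc22a6 (−0.38, SE 0.11) and Lum (−0.52, SE 0.16). Of the 12, 11 had a lower mean in KO, the direction of the OPC markers and of 63.9% of all genes. The part of meningeal fibroblasts in the Pdgfra and Vcan signals was not tested. Choroid plexus markers had a median of −2.20 and red blood cell markers one of −0.35, both with control replicate 2 highest. The 8 OPC markers were highest on control replicate 1 in 5 cases, on control replicate 2 in 2 and on KO replicate 2 in 1. Without control replicate 2 the median over the OPC markers was −0.19.

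**Figure D4:**
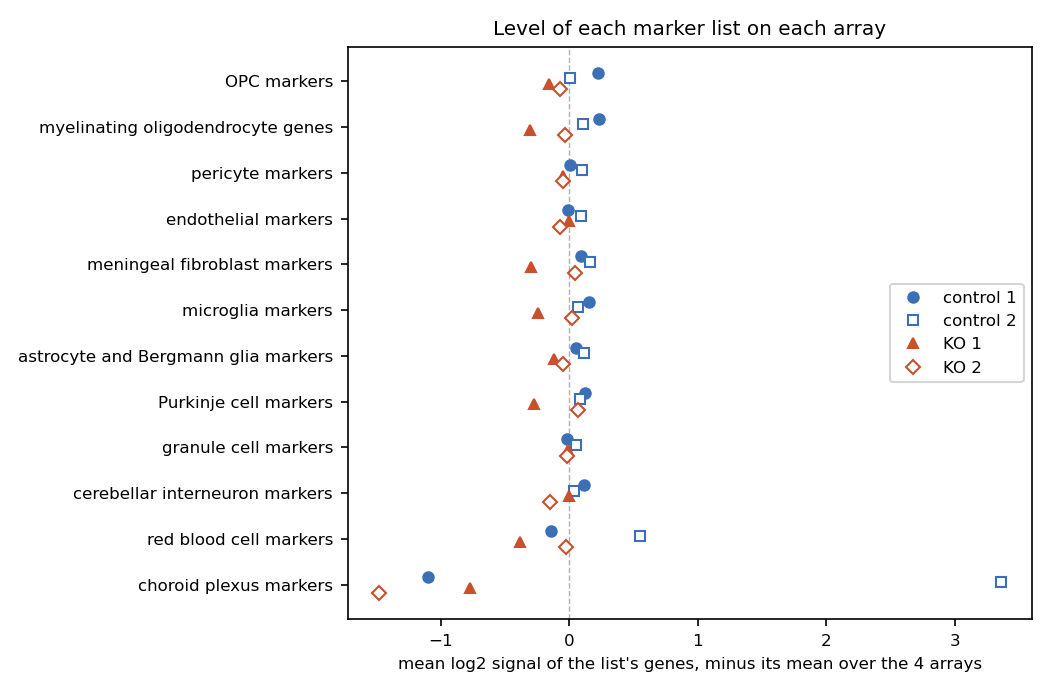
Mean log2 signal of each marker list on each array, less the list's mean over the 4 arrays (x axis, log2 units; blue control, orange KO; filled replicate 1, open replicate 2). Control replicate 2 stands apart for choroid plexus and red blood cell markers, and the OPC markers run from −0.28 to −0.20 in KO and from −0.12 to 0.10 in control before centring.

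Taken sample against sample, the median difference over the 8 markers was −0.29 for KO replicate 1 and −0.26 for KO replicate 2 against control replicate 1, and −0.20 and −0.10 against control replicate 2. KO replicate 1 was below control replicate 1 for 8 of 8 markers, and KO replicate 2 for 6. Against control replicate 2, KO replicate 1 was lower for 6 and KO replicate 2 for 7. Over all genes, the median differences of the same pairs of samples ran from −0.065 to −0.055. A lower group mean in KO was found for 63.9% of all genes. Within the groups, the median absolute gap between replicates over the 8 was 0.170 in control and 0.288 in KO, compared with 0.115 and 0.152 over all genes. The median signed difference over the 8, replicate 1 less replicate 2, was 0.10 in control and −0.07 in KO, beside −0.17 between the groups.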

How the data were processed

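Feature Extraction 12.1.1.1 made the scanner files, per the file headers, while the submitters' processing notes name 10.7.1.1. The deposited signal that was used is a linear intensity from which Feature Extraction had removed background, and the header statistics record spatial and multiplicative detrending. Each spot also has flags for outliers and for signal well above background. The authors' series table, as deposited, is on a log2 scale. Its normalization and centring are not stated in the labels: over 17829 bright probes, differences between its columns equalled those of the scanner values less a constant per array, within 0.01 for 100% of them, with each probe centred on an unknown value. Its column medians were 0.01 and −0.19 in control and −0.16 and −0.22 in KO.

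Log2 signals of a probe's spots were averaged without outlier spots (65 to 176 per array) and the array's 75th percentile was subtracted. Kept probes were those flagged as well above background in each sample of 1 group or of both. Of 35886 probes with a RefSeq accession, 91.9% were named through a RefSeq table (GRCm38.p6), without accession versions. KO was compared with control over all kept probes by limma 3.58.1 in R 4.3.3 with Benjamini-Hochberg adjustment, with 4.35 degrees of freedom of which 2.35 from the prior, after a test on simulated data. The number of arrays limits the precision. The members, lists and tests were chosen with earlier results of these data known. Named genes are the markers, Derl2, the 3 genes of smallest p in each list, and the 3 profiles nearest to the marker of widest range. Outside this rule, Olig2, Ptprz1, Bmp4, Sox10, Lhfp and Ermn were chosen after their values were seen. A gene that this rule names is not reported here. Patch spots have a local background more than 1.5 times the median of their array, or lie within 2 rows or columns of such a spot. Alternatives were other scalings, normexp, the series table, filters, flagged or patch spots, variance models, a replicate block and single arrays left out. Normexp was run on the median spot signal with an offset of 50, followed by quantile normalization.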

Additional observations from a re-analysis of the deposited data

How the results depend on the processing

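The median over the 8 markers stayed below 0 under all 16 alternatives, from −0.25 to −0.08. Of 127 values of single markers, 119 kept their direction. The mean of all kept probes of a gene was not tested, and under the other alternatives no marker passed the adjusted threshold. The other 8 turned: Pdgfra was 0.04 with spike-in scaling, 0.02 with normexp and 0.20 without KO replicate 1; Vcan was 0.02 with spike-in scaling, 0.05 without control replicate 1 and 0.09 without KO replicate 2; Tnr was 0.13 without control replicate 1 and Gpr17 0.0037 without KO replicate 1. The lowest values with an array left out were −0.29 for Pdgfra, −0.34 for Gpr17, −0.22 for Vcan and −0.77 for Tnr. The cause was not tested. Tnr could not be fitted with patch spots left out, which left 7 markers. The count of markers lower at an unadjusted p under 0.05 is given here for fits of all 4 arrays only. It was 0 as reported and 1 with normexp (Lhfpl3), where 5.91% of all genes were lower. With an intensity trend and robust variances it was 2 (Lhfpl3 and C1ql1), where 9.29% were. Without control replicate 2, which left 1 control, the differences were −0.77 for Tnr and −0.98 for C1ql1. Without control replicate 1 they were 0.13 and −0.31. Separate groups, lower in KO, were 2 with spike-in scaling (17.1% of all genes) and 5 to 6 with an array left out, when 44.6% to 49.4% of all genes were separate and lower; the count higher was 0 to 1. The number of probes past the adjusted threshold, 0 as reported, was 1 each with quantile normalization, the median of detected probes, spike-in scaling, normexp and patch spots left out, 4 with the intensity trend, and 0 to 98 with an array left out, 98 of them without control replicate 2. The fit then takes the remaining array to vary as the complete group does. The Derl2 difference ran from −1.47 to −1.35 with an array left out, and at −1.41 passed the threshold with the intensity trend (adjusted p = 0.0166). With the replicate number as a block (replicate block) the median was −0.17, the smallest adjusted p of a marker was 0.323 and no call changed. Samples share only a number: replicate 1 less 2 in control and in KO correlated at 0.124 over 37516 probes. No scaling moved the median of all genes by more than 0.1.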

Other observations

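In the lists for microglia, astrocytes, interneurons, Purkinje cells and granule cells, 1 gene had an unadjusted p under 0.05, P2ry12 (−0.31, SE 0.11). Of all genes, 5.65% were lower and 3.16% higher at that limit. All 10 microglia markers had a lower mean in KO, against 63.9% of all genes, with a median of −0.23. Groups were separate and lower for 6, against 32.1% of all genes. The smallest p-values belonged to P2ry12, to Trem2, a lipid receptor (−0.30, SE 0.13), and Csf1r, the receptor on which microglia depend (−0.23, SE 0.12). Astrocyte and Bergmann glia markers had a median of −0.13 over 10 genes, led by Hopx (−0.29, SE 0.11), S100b (−0.29, SE 0.12) and Fabp7 (−0.58, SE 0.33). All 9 kept interneuron markers were lower, against 63.9% of all genes, with a median of −0.15. Groups were separate and lower for 7 of them, against 32.1% of all genes. The list was led by Kit (−0.24, SE 0.11), Slc32a1, the vesicular GABA transporter (−0.19, SE 0.10), and Nxph1 (−0.18, SE 0.11).

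Purkinje cell markers had a median of −0.08 over 8 genes, with Slc1a6 at −0.25 (SE 0.14), Car8 at −1.16 (SE 0.98) and Rora at −0.12 (SE 0.11). Car8 read 3.99 and 3.13 in control and 1.02 and 3.78 in KO, so KO replicate 1 alone was low. Granule cell markers had a median of −0.03 over 8 genes, with Zic2 at −0.17 (SE 0.11), Gabra6 at −0.10 (SE 0.10) and Etv1 at 0.07 (SE 0.11). Endothelial markers had a median of −0.11 over 9 genes, with Esam at −0.24 (SE 0.11), Cdh5 at −0.16 (SE 0.10) and Pecam1 at −0.11 (SE 0.11). Clic6, Kl and Folr1 led the choroid plexus list (−1.27, −2.67 and −3.22), and Alas2, Hba-a1 and Hbb-b2 the red blood cell list (−0.54, −0.26 and −0.95), each of these 6 highest on control replicate 2.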
